A study of Mus musculus with 36 samples.

Results

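The CXC chemokine genes described here are 6 mouse genes, Cxcl1, Cxcl2, Cxcl3, Cxcl10, Cxcl11 and Cxcl16, taken by their symbols from the deposited tables, which together list 19879 genes. All 6 were listed, but their depth differed widely. Over the 36 libraries Cxcl2 had 259416 reads, Cxcl3 41359 and Cxcl10 13886, whereas Cxcl11 had 495, Cxcl16 462 and Cxcl1 27. The RNA came from BV-2, a murine microglial line that has been immortalised, in 12 groups of 3 libraries, which are 6 treatments at 4 h and 24 h. The vehicle groups held DMSO alone or ethanol (EtOH) alone. The other groups held lipopolysaccharide (LPS, 600 ng/mL), either alone or with 1 of 3 drugs. These were dimethyl fumarate (DMF) and monomethyl fumarate (MMF), both at 30 µM, and cannabidiol (CBD) at 6 µM. DMF and MMF were dissolved in DMSO and CBD in EtOH, each vehicle was at 0.2%, and serum was lowered to 0.1% for all groups just before treatment. The vehicle carried by the group with LPS alone is not given per sample. BV-2 is a single line, so all groups share its genetic background.

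CXC chemokines are small secreted proteins that guide leukocytes through G protein-coupled receptors. Cxcl1, Cxcl2 and Cxcl3 act on Cxcr2 and attract neutrophils. Cxcl10 and Cxcl11 act on Cxcr3, attract activated T cells and are induced by interferons, and Cxcl16 is made as a membrane-bound ligand of Cxcr6 that proteases can shed. LPS is sensed by Toll-like receptor 4, which signals through Myd88 towards NF-kB and through the adaptor Ticam1 towards interferon beta. DMF and MMF are the dimethyl and monomethyl esters of fumaric acid, and CBD is a plant cannabinoid.

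The promoters of the 4 members that held a match to any motif searched are shown, because the members differ in the sites they hold there. Each line is the 250 bases before the annotated start site, 5′ to 3′ on the gene's own strand, read from GRCm39 with GENCODE start sites. Capitals mark matches to the kappaB consensus and, in Cxcl10, also to the core of the interferon-stimulated response element (ISRE core, GAAANNGAA). Cxcl1 lies at chr5:91038844-91039093 on the plus strand, Cxcl2 at chr5:91051480-91051729 on the plus strand, Cxcl3 at chr5:90933712-90933961 on the plus strand and Cxcl10 at chr5:92496749-92496998 on the minus strand.
Cxcl1: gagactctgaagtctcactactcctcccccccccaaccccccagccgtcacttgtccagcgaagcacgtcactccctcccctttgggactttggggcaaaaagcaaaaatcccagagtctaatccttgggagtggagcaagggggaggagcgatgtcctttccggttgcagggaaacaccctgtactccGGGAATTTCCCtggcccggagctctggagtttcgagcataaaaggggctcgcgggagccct
Cxcl2: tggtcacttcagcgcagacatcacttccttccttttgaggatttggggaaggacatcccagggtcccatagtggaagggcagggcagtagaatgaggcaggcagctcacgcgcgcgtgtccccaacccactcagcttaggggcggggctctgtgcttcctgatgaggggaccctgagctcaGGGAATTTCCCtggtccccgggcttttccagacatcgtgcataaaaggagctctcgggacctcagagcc
Cxcl3: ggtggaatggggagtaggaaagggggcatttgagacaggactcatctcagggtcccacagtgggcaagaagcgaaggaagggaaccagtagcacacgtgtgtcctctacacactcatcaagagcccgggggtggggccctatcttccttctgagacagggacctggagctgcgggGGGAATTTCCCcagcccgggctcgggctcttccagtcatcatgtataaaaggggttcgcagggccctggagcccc
Cxcl10: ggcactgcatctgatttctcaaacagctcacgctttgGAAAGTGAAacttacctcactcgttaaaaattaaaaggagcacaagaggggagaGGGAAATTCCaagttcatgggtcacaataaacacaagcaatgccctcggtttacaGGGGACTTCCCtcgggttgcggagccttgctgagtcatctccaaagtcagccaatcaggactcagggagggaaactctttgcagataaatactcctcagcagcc

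Cxcl1, Cxcl2 and Cxcl3 each held a kappaB match on both strands of overlapping bases, which began 61, 69 and 75 bases before the start site. Cxcl10 held kappaB matches that began 159 and 104 bases before its start site, the nearer of them with overlapping matches, and an ISRE core that began at 213 bases. It also held an AP-1 match (TGANTCA) at 74 bases, which overlaps a match to the antioxidant response element core (TGACNNNGC) on the other strand at 76 bases. Cxcl3 held the letters TATAAA at 32 bases. Cxcl11 and Cxcl16 held none of the motifs searched in this window. Both strands were searched. Of 21770 protein-coding promoters of the same length, 7.62% held a kappaB match, 7.55% an ISRE core, 6.17% an AP-1 match, 9.69% an antioxidant response element core and 11.9% TATAAA. A match describes letters and does not show that a factor binds.

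**Figure D1:**
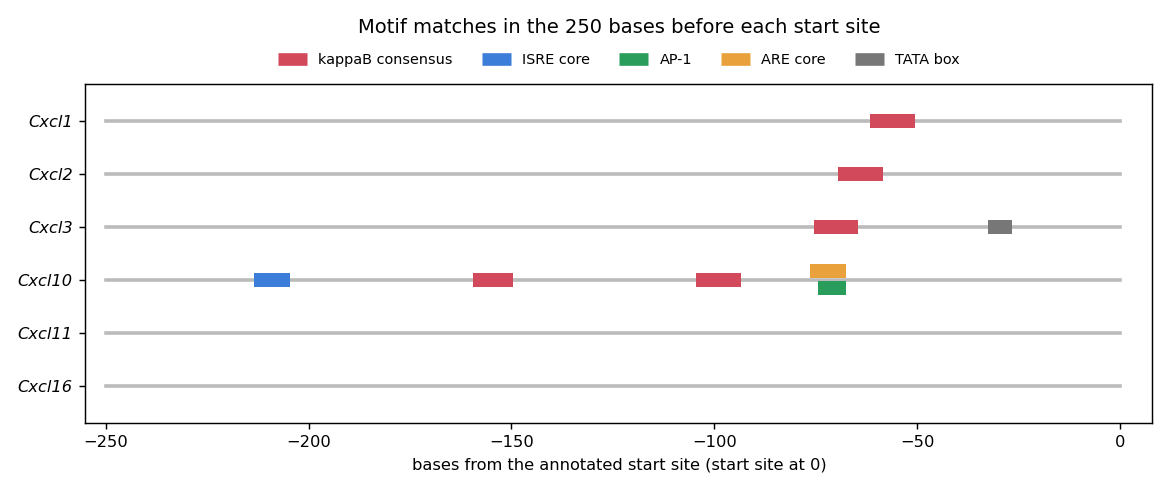
Motif matches in the 250 bases before the start site of each of the 6 genes, by distance from the start site on the x axis. The kappaB matches of Cxcl1, Cxcl2 and Cxcl3 begin 61, 69 and 75 bases before the start site, Cxcl10 holds 4 kinds of motif, and Cxcl11 and Cxcl16 hold none.

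On GRCm39 the tables place Cxcl3 (ENSMUSG00000029379) at chr5:90933962-90937459, Cxcl1 (ENSMUSG00000029380) at chr5:91039100-91040974 and Cxcl2 (ENSMUSG00000058427) at chr5:91051730-91053797, all protein coding on the plus strand. Cxcl10 (ENSMUSG00000034855) lies at chr5:92494497-92496748 and Cxcl11 (ENSMUSG00000060183) at chr5:92507403-92513344, both on the minus strand of the same chromosome, and the annotation types the main transcript of Cxcl11 as a loss-of-function form of a coding transcript. Cxcl16 (ENSMUSG00000018920) lies at chr11:70344809-70350810 on the minus strand. Of the exon bases of Cxcl16, 84.8% lie under Med11 or Zmynd15 on the opposite strand, and 41.7% of those of Cxcl11 lie under Gm2673. Whether the counting used strand is not given in the sources used here, so the reads of Cxcl16 and Cxcl11 cannot be told apart from those of these partners. For Cxcl10 the share was 5.91% (under Art3), and for Cxcl1, Cxcl2 and Cxcl3 it was 0. Of the 100-base stretches of Cxcl2 and Cxcl3, 3.05% and 1.88% occur in another gene as well, so a few reads of this family could be placed in more than 1 gene.

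Sequencing depth ran from 14.1 M to 26.7 M counted reads per library, with a median of 16.2 M. Levels below are normalized reads (reads divided by a median-of-ratios factor over all 36 libraries), while fold changes and tests rest on the authors' normalized counts in each pairwise table, as log2 of the count plus 1. Called means that limma gave an adjusted p (Benjamini-Hochberg, over all genes tested) under 0.05. All 12 markers of microglia and macrophages had a group mean of 10 or more, and their summed level ran from 27072 to 52479 per library. Of the defining homeostatic markers, Tmem119 ran from 25.4 to 184 and P2ry12 from 27.5 to 90.3 over the group means. Among markers of other cells, Snap25, Syt1 and Aqp4 had no read, and Rbfox3, Mog, Cldn5, Col1a1, Pdgfra, Cd3e, Cd3g and Ms4a1 stayed under 5 in every group mean. Mbp and Map2, which are not specific to other cells, were present at 748 to 1386 and 101 to 275. At 24 h Map2 was called higher with LPS than with DMSO (log2 1.07) and lower with DMF than with LPS alone (log2 -1.48). Of the 12 microglia and macrophage markers, 4 were called lower with DMF at 4 h, 3 higher and 1 lower with DMF at 24 h, and 2 higher and 4 lower with CBD at 24 h, each against LPS alone. In the same comparisons 11.1%, 25.1% and 48.7% of all genes were called. The part of these markers in the results was not tested.

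Cxcl2 spanned the widest range of the members. Its mean level ran from 172 ± 113 normalized reads in EtOH at 4 h to 17972 ± 5075 in LPS with DMF at 24 h (SD, n = 3). In the order of its 12 group means, neighbouring groups overlapped except at 3 steps, namely between CBD at 24 h and CBD at 4 h, between LPS at 24 h and the vehicles at 24 h, and between the vehicles at 24 h and those at 4 h. For Cxcl3 the mean ran from 162 ± 37.5 in DMSO at 4 h to 2913 ± 868 in LPS with DMF at 24 h, and neighbours in the order were apart only between LPS at 24 h and EtOH at 24 h. For Cxcl10 it ran from 75.3 ± 16.7 in DMSO at 24 h to 931 ± 451 in LPS with CBD at 4 h, and no neighbours in the order were apart. Per length of transcript, the Cxcl2 level in LPS at 4 h was 237 ± 28.7 reads per kb of exon and M counted reads (RPKM), against 26.1 ± 11.6 for Cxcl3 and 20.3 ± 7.67 for Cxcl10. The neutrophil attractant Cxcl2 was thus the most abundant member per length in every LPS group.

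**Figure D2:**
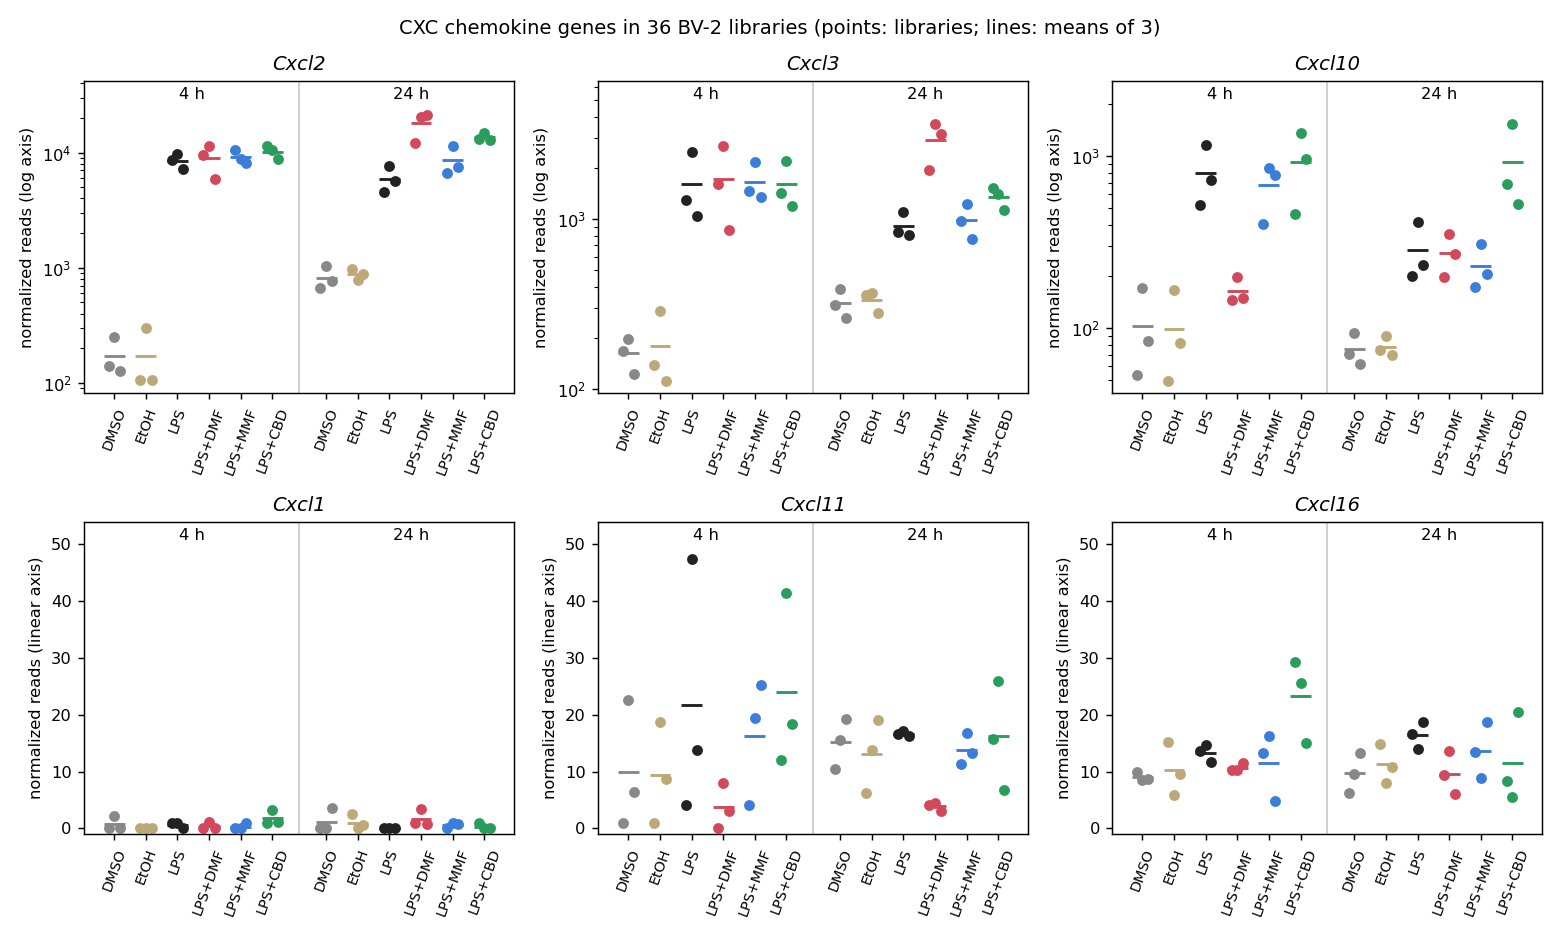
Normalized reads of the 6 members in each of 36 libraries, by treatment and time, with the mean of 3 libraries as a line. The upper panels have a log axis and the lower panels a linear axis. Cxcl2, Cxcl3 and Cxcl10 rise with LPS, Cxcl10 is low in LPS with DMF at 4 h (145 to 199), and Cxcl1 stays below 4 in every library.

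LPS against the vehicles asks which members activation of the cells raises. Cxcl2, Cxcl3 and Cxcl10 rose against both vehicles at both times, Cxcl2 the most, and Cxcl11 and Cxcl16 passed the test in none of these comparisons. In a culture of cells, more cells that make a transcript and more transcript per cell cannot be told apart. Of the 5 members tested, 3 were called higher in each comparison, where 14.1% of all genes were called against DMSO and 10.2% against EtOH at 4 h, and 22.7% and 20.5% at 24 h. The comparisons at a time share the LPS libraries, so their values stand side by side and are not independent.

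For Cxcl2 at 4 h, the DMSO libraries held 140, 249 and 128 normalized reads, the EtOH libraries 107, 302 and 106, and the LPS libraries 8648, 9690 and 7259. Every LPS library lay far above every vehicle library. The rise was 50.9-fold over DMSO (log2 5.67, SE 0.231, limma adjusted p 4.13e-06) and 55.9-fold over EtOH (log2 5.81, SE 0.362, limma adjusted p 7.05e-05). At 24 h the DMSO libraries held 668, 1029 and 767, the EtOH libraries 983, 783 and 880, and the LPS libraries 4526, 7685 and 5638. The LPS libraries were again apart from both vehicles, but the vehicles stood higher than at 4 h. The rise was 7.25-fold over DMSO (log2 2.86, SE 0.186, limma adjusted p 3.07e-06) and 6.65-fold over EtOH (log2 2.73, SE 0.158, limma adjusted p 8.93e-07).

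Cxcl3, the close relative of Cxcl2, followed at a lower level. At 4 h it held 168, 197 and 122 normalized reads in DMSO, 139, 290 and 112 in EtOH and 1294, 2464 and 1047 in LPS. The LPS libraries did not overlap the vehicle libraries, and replicate 2 held about as much as the other two together. The rise was 9.28-fold over DMSO (log2 3.21, SE 0.297, limma adjusted p 0.000339) and 8.98-fold over EtOH (log2 3.17, SE 0.392, limma adjusted p 0.00215). At 24 h it held 312, 387 and 264 in DMSO, 356, 368 and 282 in EtOH and 838, 1093 and 806 in LPS, a rise of 2.87-fold over DMSO (log2 1.52, SE 0.152, limma adjusted p 4.95e-05) and 2.73-fold over EtOH (log2 1.45, SE 0.138, limma adjusted p 2.90e-05).

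Cxcl10, the interferon-inducible member, held 53.2, 171 and 84.5 normalized reads in DMSO, 49.5, 166 and 81.6 in EtOH and 518, 1155 and 728 in LPS at 4 h. The LPS libraries lay above all vehicle libraries, and in both vehicles replicate 5 held the most. The rise was 8.16-fold over DMSO (log2 3.03, SE 0.413, limma adjusted p 0.00243) and 8.57-fold over EtOH (log2 3.10, SE 0.428, limma adjusted p 0.00349). At 24 h it held 70.6, 93.7 and 61.4 in DMSO, 74.3, 90.0 and 69.6 in EtOH and 199.7, 415 and 234 in LPS. The rise was 3.62-fold over DMSO (log2 1.86, SE 0.253, limma adjusted p 0.000399) and 3.46-fold over EtOH (log2 1.79, SE 0.238, limma adjusted p 0.000307).

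The LPS effect was smaller at 24 h than at 4 h for Cxcl2 and Cxcl3. This was tested as an interaction over 12 libraries, where 9.36% of all genes were called over DMSO and 9.05% over EtOH, and where 2 of the 5 members tested were called in each. For Cxcl2 the effect at 24 h minus that at 4 h was -2.81 on the log2 scale over DMSO (SE 0.334, limma adjusted p 0.000375) and -3.07 over EtOH (SE 0.435, limma adjusted p 0.00105). For Cxcl3 it was -1.69 over DMSO (SE 0.368, limma adjusted p 0.0121) and -1.72 over EtOH (SE 0.451, limma adjusted p 0.0293). The latter call was lost without EtOH replicate 4 or 6 at 4 h, EtOH replicate 4 or 5 at 24 h or LPS replicate 1 or 3 at 24 h (adjusted p 0.0563 to 0.0742). For Cxcl10 the values were -1.17 and -1.31, with limma adjusted p of 0.187 and 0.146, and each passed without replicate 5 of its vehicle at 4 h (-1.62, adjusted p 0.0444, and -1.77, adjusted p 0.0245).

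DMF against LPS asks which members the drug moves in activated cells. At 4 h Cxcl10 fell with DMF while Cxcl2 and Cxcl3 did not pass the test, and at 24 h Cxcl2 and Cxcl3 rose while Cxcl10 did not pass. At 4 h, 1 of 4 members tested was called, and lower, where 11.1% of all genes were called. At 24 h Cxcl2 and Cxcl3 were called, both higher, where 25.1% of all genes were called, and Cxcl11 passed the filter only through LPS alone, the group where it is high, so its levels are given as a description.

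With DMF at 4 h Cxcl10 held 145, 199 and 149 normalized reads, against 518, 1155 and 728 with LPS alone. Every DMF library lay below every LPS library, and the log2 fold change was -2.21 (4.64-fold lower, SE 0.262, 95% interval -2.81 to -1.62, limma adjusted p 0.00103). Against DMSO alone, the DMF libraries at 4 h overlapped the DMSO libraries in Cxcl10, and the difference was 0.81 on the log2 scale (95% interval 0.019 to 1.61, limma adjusted p 0.124). Without DMSO replicate 5 it was 1.26 and passed (adjusted p 0.00779). At the same time Cxcl2 held 9577, 11368 and 5956 normalized reads with DMF and Cxcl3 held 1617, 2671 and 859, and both overlapped LPS alone. Their log2 fold changes against LPS were 0.03 (95% interval -0.46 to 0.52, limma adjusted p 0.960) and 0.05 (95% interval -0.87 to 0.97, limma adjusted p 0.964). Against DMSO alone they stood 51.9-fold and 9.60-fold higher.

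At 24 h Cxcl2 and Cxcl3 were the members that rose. With DMF Cxcl2 held 12144, 20361 and 21412 normalized reads, against 4526, 7685 and 5638 with LPS alone, and the groups were apart. The rise was 3.00-fold (log2 1.58, SE 0.217, 95% interval 1.10 to 2.07, limma adjusted p 0.00101). Cxcl3 held 1947, 3627 and 3164 against 838, 1093 and 806, also apart, a rise of 3.11-fold (log2 1.64, SE 0.197, 95% interval 1.20 to 2.07, limma adjusted p 0.000558). Cxcl10 held 199, 351 and 269 with DMF against 199.7, 415 and 234 with LPS, and its log2 fold change was -0.02 (95% interval -0.59 to 0.56, limma adjusted p 0.970). Cxcl11 held 4.18, 4.53 and 3.00 with DMF against 16.5, 17.1 and 16.3 with LPS alone, on 12 against 52 reads. These groups were apart.

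The DMF effect differed between the times for Cxcl10, Cxcl2 and Cxcl3, which were 3 of 5 members tested, where 16.4% of all genes were called. Each was more positive at 24 h, by 2.19 on the log2 scale for Cxcl10 (SE 0.417, limma adjusted p 0.00292), by 1.55 for Cxcl2 (SE 0.352, limma adjusted p 0.00832) and by 1.58 for Cxcl3 (SE 0.508, limma adjusted p 0.0464). The call of Cxcl3 was lost without LPS replicate 1 or 2 or DMF replicate 1 or 3 at 4 h, and without LPS replicate 1 or 3 or DMF replicate 2 or 3 at 24 h (adjusted p 0.0563 to 0.115). It was also lost in DESeq2 (adjusted p 0.0762) and with no filter on low values (adjusted p 0.0662).

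**Figure D3:**
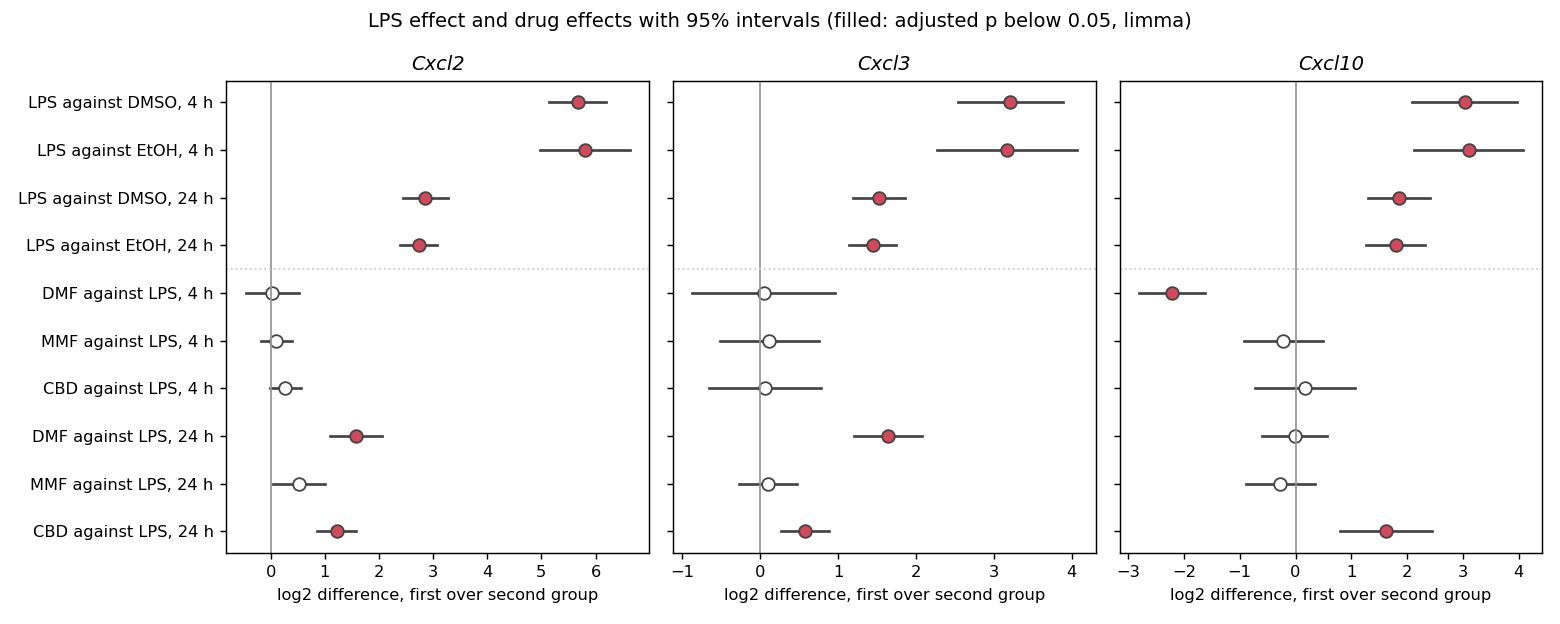
Log2 difference of Cxcl2, Cxcl3 and Cxcl10 between the groups named at the left, with the 95% interval as a line, where a drug name stands for LPS with that drug and filled points passed an adjusted p of 0.05. LPS raises all 3, DMF at 4 h lowers Cxcl10 (-2.21), and at 24 h DMF raises Cxcl2 and Cxcl3 and CBD raises all 3.

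The ratio of 2 members within a library needs no scaling between libraries. Per length, Cxcl2 stood at 12.7 ± 4.81 times Cxcl10 in LPS alone at 4 h (SD, n = 3). The ratio was 59.2 ± 14.4 when DMF was added, 17.0 ± 9.85 for MMF and 15.0 ± 10.1 for CBD. The DMF libraries at 4 h, from 43.4 to 71.8, lay above all others of that time, which reached 28.3. At 24 h the ratio was 23.7 ± 3.18 for LPS alone, and 72.2 ± 12.8 for DMF, 40.8 ± 1.29 for MMF and 19.2 ± 8.07 for CBD. In the vehicles it was 2.04 ± 0.727 (DMSO) and 1.92 ± 0.477 (EtOH) at 4 h, and 11.95 ± 1.65 and 12.6 ± 2.68 at 24 h. Cxcl2 against Cxcl3, by contrast, stood at 9.90 ± 2.82 with LPS and 9.65 ± 2.29 with DMF at 4 h, and at 11.0 ± 1.58 and 10.5 ± 0.977 at 24 h, so the libraries of these groups overlapped. These ratios are given as a description, since 3 libraries against 3 cannot go below an exact permutation p of 0.1.

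**Figure D4:**
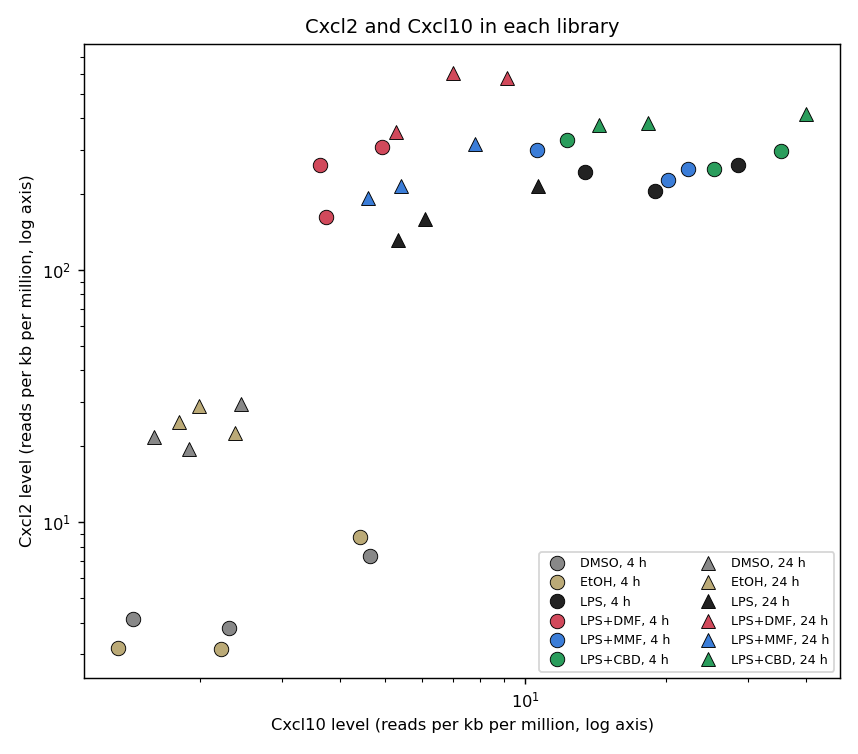
Cxcl2 level against Cxcl10 level in each of 36 libraries, both per kb of exon and M counted reads on log axes, with colour for treatment and shape for time. The libraries of LPS with DMF lie to the left of the other LPS libraries of their Cxcl2 level, at a Cxcl2 over Cxcl10 ratio of 59.2 at 4 h and 72.2 at 24 h on average.

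MMF, the monoester, gave no call among the members against LPS, with 0 of 5 at 4 h, where 0.122% of all genes were called, and 0 of 5 at 24 h, where 0% were called (limma). At the later time the unadjusted p was under 0.05 for 440 genes, with 0 calls in edgeR and 17 in DESeq2. At 4 h Cxcl2 held 10537, 8833 and 8083 normalized reads with MMF, Cxcl3 1460, 2158 and 1344, and Cxcl10 405, 857 and 780, all overlapping LPS alone. Their log2 fold changes were 0.11 (95% interval -0.17 to 0.39), 0.12 (-0.51 to 0.75) and -0.22 (-0.93 to 0.49). At 24 h Cxcl2 held 6683, 11478 and 7496, a log2 fold change of 0.52 (95% interval 0.036 to 0.999, limma adjusted p 0.999). When replicate numbers entered as a block, since same-numbered libraries deviated together here, the same value passed (limma adjusted p 2.38e-07), and each MMF library stood above the LPS library of its number. The block called 206 of 11584 genes. Cxcl3 (0.10, 95% interval -0.27 to 0.48) and Cxcl10 (-0.27, 95% interval -0.89 to 0.34) did not pass in either fit.

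DMF and MMF differ by 1 methyl ester group and were compared directly at 30 µM at both times, in 2 comparisons adjusted over all genes tested. At 4 h 1 of 4 members tested differed, Cxcl10, where 8.34% of all genes were called. It was lower with DMF by -1.99 on the log2 scale (SE 0.256, 95% interval -2.56 to -1.42, limma adjusted p 0.00214), with the libraries of the groups apart. Cxcl2 and Cxcl3 did not pass, with differences of -0.08 (95% interval -0.53 to 0.38) and -0.07 (95% interval -0.82 to 0.68). At 24 h Cxcl2 and Cxcl3 differed, where 21.5% of all genes were called. Cxcl3 was 2.90-fold higher with DMF (log2 1.53, SE 0.221, limma adjusted p 0.0019) and Cxcl2 2.09-fold higher (log2 1.07, SE 0.230, limma adjusted p 0.0116). Cxcl11 passed the filter only through MMF, the group where it is high, and is not counted. The Cxcl2 call was lost without replicate 3 of DMF (0.92, adjusted p 0.0649) or of MMF (0.996, adjusted p 0.0537). Cxcl10 differed by 0.25 (95% interval -0.27 to 0.78, limma adjusted p 0.471), and with the replicate block its adjusted p was 0.0489. The block called 4639 of 11665 genes in this comparison.

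CBD gave no call among the 5 members tested at 4 h, where 0.00875% of all genes were called, and raised Cxcl2, Cxcl3 and Cxcl10 at 24 h, 3 of 5 members, where 48.7% were called. At 4 h Cxcl2 held 11355, 10536 and 8785 normalized reads with CBD, Cxcl3 1421, 2197 and 1196, and Cxcl10 464, 1363 and 966. The log2 fold changes against LPS were 0.27 (95% interval -0.02 to 0.56), 0.06 (-0.66 to 0.78) and 0.17 (-0.73 to 1.07). Cxcl2, Cxcl3 and Cxcl10 each overlapped LPS alone at this time. At 24 h Cxcl10 held 692, 1536 and 530, against 199.7, 415 and 234 with LPS alone, and the groups were apart. The rise was 3.08-fold (log2 1.62, SE 0.370, limma adjusted p 0.00563). Cxcl2 held 13244, 14672 and 12796, a rise of 2.34-fold (log2 1.23, SE 0.161, limma adjusted p 0.000265), and Cxcl3 held 1519, 1399 and 1135, a rise of 1.49-fold (log2 0.57, SE 0.137, limma adjusted p 0.00709), both with the groups apart.

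The CBD effect was more positive at 24 h than at 4 h for 1 of the 5 members tested, Cxcl2 (by 0.96 on the log2 scale, SE 0.228, limma adjusted p 0.00564), where 31.9% of all genes were called. For Cxcl10 the difference was 1.46 (SE 0.610, limma adjusted p 0.0836), and it passed without CBD replicate 2 at 4 h (1.80, adjusted p 0.0431) or LPS replicate 2 at 24 h (1.77, adjusted p 0.0465). For Cxcl3 it was 0.52 (limma adjusted p 0.323). For Cxcl16 it was -1.36 (limma adjusted p 0.0820), and it passed without CBD replicate 3 at 24 h (-1.84, adjusted p 0.0130). For MMF no member differed between the times, where 0% of all genes were called by limma. The unadjusted p was under 0.05 for 384 genes, and edgeR and DESeq2 each gave 0 calls.

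CBD at 6 µM and the fumarates at 30 µM differ in dose and vehicle, and their values are set side by side from the direct comparisons under LPS. At 4 h Cxcl10 was higher in CBD than in DMF by 2.39 on the log2 scale (limma adjusted p 0.00187), where 15.5% of all genes were called. Cxcl11 passed the filter only through CBD, the group where it is high, and is not counted. At 24 h 2 of 3 members tested were called, where 38.5% of all genes were called. Cxcl10 was higher in CBD by 1.63 (limma adjusted p 0.00609) and Cxcl3 lower by -1.07 (limma adjusted p 0.00343). Cxcl2 differed by -0.37 (limma adjusted p 0.155), and passed without DMF replicate 1 (-0.63, adjusted p 0.00218) and with the replicate block (adjusted p 0.0400). The block called 5579 of 11740 genes at 24 h.

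Between CBD and MMF no member was called at 4 h, where 0.166% of all genes were called (0 of 5 tested). With the replicate block, since these libraries pair by number, Cxcl2 (0.16, adjusted p 0.0132) and Cxcl10 (0.39, adjusted p 0.000447) passed. That fit called 889 of 11432 genes. At 24 h 3 of 5 were called, all higher with CBD, where 48.3% of all genes were called. The differences were 1.89 for Cxcl10 (limma adjusted p 0.00214), 0.71 for Cxcl2 (limma adjusted p 0.00806) and 0.47 for Cxcl3 (limma adjusted p 0.0406). The last was lost without replicate 1 or 3 of MMF (adjusted p 0.0930 and 0.136) or replicate 1 or 2 of CBD (adjusted p 0.135 and 0.0678).

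Against their own vehicles, cells with LPS and a drug kept Cxcl2 and Cxcl3 high in every case. At 4 h the calls were 2 of 3 members tested with DMF, where 23.5% of all genes were called, 3 of 4 with MMF, where 8.22% were called, and 3 of 5 with CBD, where 13.6% were called. At 24 h they were 3 of 3 with DMF, 3 of 5 with MMF and 3 of 5 with CBD, where 40.2%, 22.4% and 50.5% of all genes were called. All these calls were higher with LPS and the drug. Cxcl2 stood 54.9-fold above DMSO with MMF and 67.5-fold above EtOH with CBD at 4 h, and 21.8-fold, 10.4-fold and 15.5-fold above the vehicle with DMF, MMF and CBD at 24 h. Cxcl10 stood 6.997-fold above DMSO with MMF and 9.66-fold above EtOH with CBD at 4 h, and 3.60-fold, 3.01-fold and 10.6-fold above the vehicle with DMF, MMF and CBD at 24 h.

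The vehicles themselves were compared with each other. No member was called between DMSO and EtOH, with 0 of 3 tested at 4 h, where 0% of all genes were called by limma (unadjusted p under 0.05 for 1051 genes, with 0 calls in edgeR and 87 in DESeq2), and 0 of 5 at 24 h, where 0.00854% were called. The 95% interval of the Cxcl10 difference was -1.04 to 1.18 at 4 h and -0.50 to 0.36 at 24 h.

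Between 24 h and 4 h the members moved in different directions in different treatments. In the vehicles Cxcl2 rose with time, 4.796-fold in DMSO (log2 2.26, limma adjusted p 4.37e-05) and 5.72-fold in EtOH (log2 2.52, limma adjusted p 0.00011), where 51.6% and 58.6% of all genes were called and 2 of 4 and 2 of 5 members were called. Cxcl3 rose 1.95-fold in DMSO (limma adjusted p 0.0015) and 1.98-fold in EtOH (limma adjusted p 0.0123), and the latter call was lost without EtOH replicate 6 at 4 h (adjusted p 0.0534). Cxcl10 was not called in either vehicle.

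With LPS alone 3 of 5 members fell with time, where 48.9% of all genes were called. Cxcl10 fell most (log2 -1.50, limma adjusted p 0.00286), beside Cxcl3 (-0.73, limma adjusted p 0.0400) and Cxcl2 (-0.55, limma adjusted p 0.0250). The Cxcl2 call was lost without LPS replicate 1 or 2 at 4 h or replicate 1 or 3 at 24 h (adjusted p 0.0528 to 0.0840), and the Cxcl3 call without replicate 1, 2 or 3 at 24 h (adjusted p 0.0543 to 0.126). With MMF 2 of 5 members were called, both lower at 24 h, Cxcl10 (-1.54, limma adjusted p 0.000657) and Cxcl3 (-0.74, limma adjusted p 0.00588), where 49.5% of all genes were called. Cxcl2 with MMF differed by -0.14 (limma adjusted p 0.522), and passed without MMF replicate 2 at 24 h (-0.36, adjusted p 0.0208). With DMF 2 of 3 members tested rose, Cxcl2 (1.003, limma adjusted p 0.00553) and Cxcl10 (0.70, limma adjusted p 0.0142), where 58.8% of all genes were called, and the Cxcl10 call was lost without DMF replicate 2 at 24 h (0.50, adjusted p 0.0633) or replicate 3 at 4 h (0.63, adjusted p 0.0520). Cxcl3 with DMF differed by 0.86 (limma adjusted p 0.0546), and passed without DMF replicate 1 at 24 h (1.12, adjusted p 0.0268) or replicate 2 at 4 h (1.25, adjusted p 0.00143). With CBD 1 of 5 rose, Cxcl2 (0.40, limma adjusted p 0.0068), where 63.2% of all genes were called. With CBD Cxcl10 differed by -0.05 (95% interval -0.99 to 0.90), and Cxcl16 by -1.10 (limma adjusted p 0.0619), which passed without CBD replicate 3 at 24 h (-1.59, adjusted p 0.009995).

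The remaining members had few counted reads. For Cxcl16 and Cxcl11 this need not mean low expression. Of their exon bases, 84.8% and 41.7% lie under other genes, and how reads on such bases were counted is not given. Cxcl1, a ligand of Cxcr2 like Cxcl2, had no read in 19 libraries and 3 or fewer in 35 of 36, and the most was 4. It passed the filter in no comparison, so no fold change is given. In a library 3 reads, the most that a count of 0 allows for, correspond to 0.0598 to 0.113 RPKM for Cxcl1, and this limit covers counting error only. In LPS at 4 h Cxcl1 had 2 reads over 3 libraries, where its neighbour Cxcl2 had 24239 and Cxcl3 4551. All 3 promoters hold the kappaB letters shown above.

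Cxcl11, the other ligand of Cxcr3, ran from 0 to 47.5 normalized reads. In LPS at 4 h it held 4.22, 47.5 and 13.8, in DMSO 1.003, 22.6 and 6.497 and in LPS with DMF 0, 7.96 and 3.15. The range within LPS was wider than any difference between the group means at this time. Cxcl16, the shed ligand of Cxcr6, ran from 4.85 to 29.3 normalized reads and was called in no comparison. Its highest group was LPS with CBD at 4 h, with 29.3, 25.6 and 15.1, against 13.7, 14.8 and 11.7 with LPS alone, and it overlaps Med11 and Zmynd15 as described. At 24 h Cxcl16 was lower with CBD than with LPS by -0.65 on the log2 scale (limma adjusted p 0.251), which passed without CBD replicate 3 (-1.14, adjusted p 0.0432).

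Most other CXC ligands were at or near 0. Of 9 listed, Cxcl12 and Cxcl13 had no read, Cxcl5, Cxcl9, Cxcl15 and Cxcl17 stayed under 3 in every group mean, and 3 were tested. Cxcl14 ran from 607 to 1992 over the group means and Pf4, a chemokine known from platelets, from 2139 to 3773. Ppbp ran only from 12.05 to 31.8, near the filter of 10, and was lowest in LPS alone at 24 h. At 4 h LPS called 0 of 3 against either vehicle, where 14.1% (DMSO) and 10.2% (EtOH) of all genes were called. DMF, MMF and CBD at 4 h called 0 of 3 against LPS, where 11.1%, 0.122% and 0.00875% were called. At 24 h LPS called 1 of 3 higher against DMSO, and 1 higher and 1 lower against EtOH, where 22.7% and 20.5% of all genes were called. DMF at 24 h raised 2, Pf4 (log2 0.36, limma adjusted p 0.0227) and Ppbp (1.14, limma adjusted p 0.0282), and lowered 1, Cxcl14 (-0.53, limma adjusted p 0.00376), where 25.1% of all genes were called. CBD at 24 h lowered Cxcl14 (-1.16, limma adjusted p 4.93e-05), 1 of 3, where 48.7% of all genes were called. MMF at 24 h called 0 of 3, where 0% of all genes were called.

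Receptors of these ligands were called in both directions. All 7 CXC receptors listed had a read, and 3 were tested at 4 h and 4 at 24 h. Cxcr4, which binds Cxcl12, fell with LPS at 4 h (log2 -1.09 against DMSO, -1.36 against EtOH) and at 24 h (-1.58 and -1.60). Cxcr3, the receptor of Cxcl10 and Cxcl11, fell against both vehicles at 24 h (-0.62 and -0.67) and against EtOH at 4 h (-0.76). Thus 1 of 3 receptors was lower against DMSO and 2 of 3 against EtOH at 4 h, and 2 of 4 were lower at 24 h, where Cxcr5 passed the filter only through LPS, the group where it is high. Over all genes, 14.1% and 10.2% were called at 4 h against DMSO and EtOH, and 22.7% and 20.5% at 24 h.

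Under the drugs, DMF at 4 h raised Cxcr4 (log2 1.57, limma adjusted p 0.00333) and lowered Cxcr3 (-0.75, limma adjusted p 0.0301), and at 24 h it raised Cxcr2 (0.61, limma adjusted p 0.00225) and Cxcr3 (0.72, limma adjusted p 0.0280). CBD at 24 h lowered Cxcr2 (-3.86, SE 0.247, limma adjusted p 6.10e-06) and Cxcr3 (-1.001, limma adjusted p 0.00597) and raised Cxcr4 (1.20, limma adjusted p 0.00133). MMF at either time and CBD at 4 h called no receptor. Over all genes, 11.1% were called with DMF at 4 h, 25.1% with DMF at 24 h and 48.7% with CBD at 24 h. With MMF at 4 h, MMF at 24 h and CBD at 4 h, 0.122%, 0% and 0.00875% were called. The median log2 fold change of the receptors was -0.81 with CBD at 24 h and 0.43 with DMF at 24 h, against -0.002 and -0.007 over all genes.

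Among 6 proteases that can cut or shed chemokines, Adam10, the sheddase of Cxcl16, was not called against LPS or in the LPS comparisons. LPS raised 3 of 4 tested at 4 h against each vehicle and 4 of 5 at 24 h, with the same shares of all genes called as for the receptors, and against DMSO at 24 h Mmp8 passed the filter only through LPS, the group where it is high. Mmp9 rose with LPS by 1.04 on the log2 scale against DMSO at 4 h and 1.96 at 24 h, and was lower with DMF at 4 h (-1.19, limma adjusted p 0.00474), higher with DMF at 24 h (0.96, limma adjusted p 0.000291) and lower with CBD at 24 h (-0.89, limma adjusted p 0.00452). Against LPS, DMF called 1 of 4 lower at 4 h and 3 of 5 higher at 24 h, where 11.1% and 25.1% of all genes were called. CBD called 3 of 5 lower at 24 h, where 48.7% were called. MMF at 4 h, MMF at 24 h and CBD at 4 h called none, where 0.122%, 0% and 0.00875% of all genes were called.

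The list of NF-kB input and mRNA decay holds 10 genes, all tested. LPS raised 8 of 10 against DMSO and 9 of 10 against EtOH at 4 h, and 8 and 7 of 10 at 24 h, with none lower and the shares of all genes as for the receptors. Zc3h12a, which encodes an RNase of inflammatory mRNAs, rose by 2.69 on the log2 scale against DMSO at 4 h, and Nfkbia, which encodes the inhibitor of NF-kB, by 1.497. DMF at 4 h lowered 4 of 10, Tnfaip3 (-1.02), Nfkbia (-0.89), Zc3h12a (-0.88) and Myd88 (-0.40), where 11.1% of all genes were called, and the list's median was -0.54 against 0.006 over all genes. At 24 h DMF raised 1 (Rela, 0.41) and lowered 1 (Tnfaip3, -0.63), where 25.1% of all genes were called. CBD at 24 h raised 2 (Nfkbiz, 0.35, and Rela, 0.33) and lowered 1 (Nfkb2, -0.51), where 48.7% of all genes were called. MMF at 4 h, MMF at 24 h and CBD at 4 h called none, where 0.122%, 0% and 0.00875% of all genes were called.

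The interferon input list holds 9 genes. In the comparisons given here 8 of them were tested, since Ifnb1 stayed below the filter there (0 to 11.0 over the group means). LPS raised 3 of 8 against DMSO and 2 of 8 against EtOH at 4 h, and 5 of 8 against each at 24 h, with none lower. Over all genes, 14.1% and 10.2% were called at 4 h against DMSO and EtOH, and 22.7% and 20.5% at 24 h. At 4 h Stat2, which encodes a subunit of the interferon-activated complex that binds the ISRE, rose by 1.45 against DMSO and 1.73 against EtOH. DMF at 4 h lowered 3 of 8, Stat2 (-1.15), Irf1 (-0.83) and Irf9 (-0.64), with a list median of -0.45 against 0.006 over all genes, of which 11.1% were called. At 24 h DMF raised 1 (Ifnar2, 0.41) and lowered none, where 25.1% of all genes were called. CBD at 24 h raised 4 of 8, Stat2 (1.02), Irf9 (0.58), Ifnar2 (0.47) and Ticam1 (0.44), with a list median of 0.46, where 48.7% of all genes were called. MMF at 4 h, MMF at 24 h and CBD at 4 h called none, where 0.122%, 0% and 0.00875% of all genes were called.

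**Figure D5:**
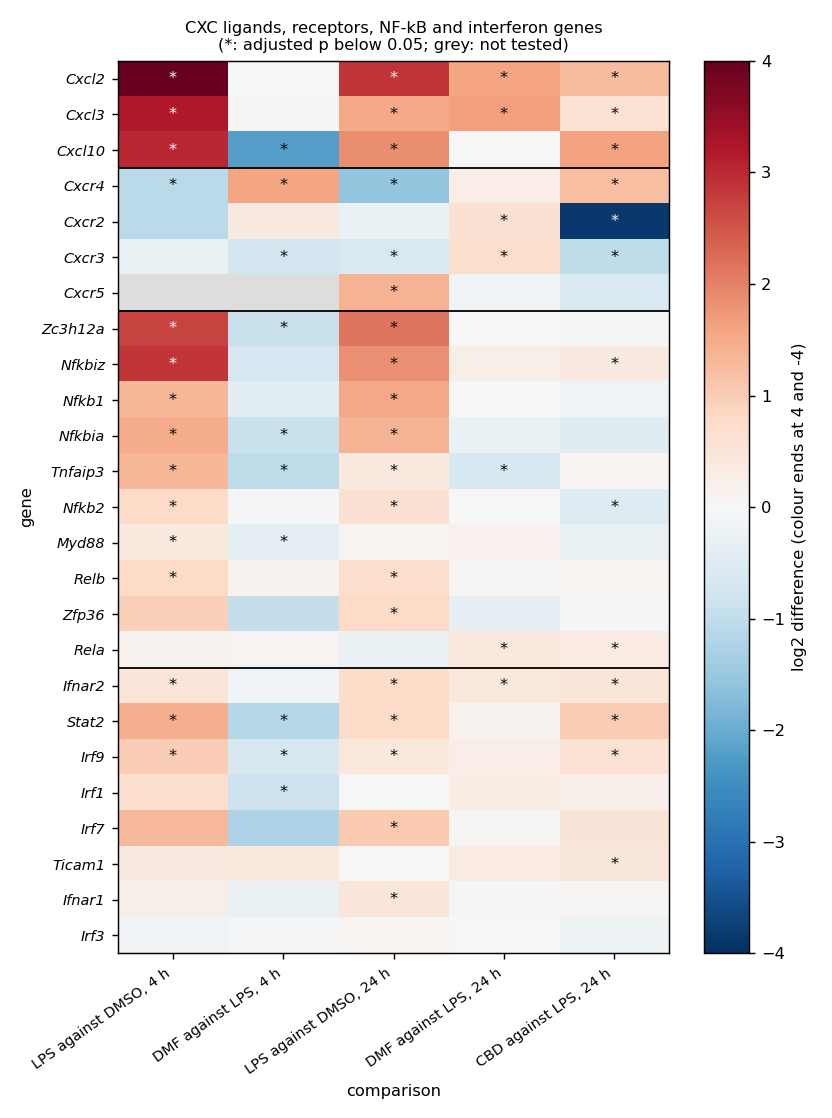
Log2 difference, by colour, of Cxcl2, Cxcl3 and Cxcl10 and of the tested CXC receptors, NF-kB input and interferon input genes (rows) in 5 comparisons (columns), where stars mark an adjusted p below 0.05 and grey was not tested. DMF at 4 h lowers Cxcl10 (-2.21), Stat2 (-1.15) and Tnfaip3 (-1.02), and CBD at 24 h lowers Cxcr2 (-3.86).

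The genes most like each member over the 12 group means were searched among 10555 genes with a mean of at least 50 in some group, by Pearson's r of log2 levels, as a description in which all points share libraries. Cxcl2 was most like Tnfrsf1b (r = 0.99), a receptor of Tnf, and Ripk2 (0.97), a kinase. Cxcl3 was most like Jdp2 (0.98), a repressor of AP-1, and Ripk2 (0.96). Cxcl10 was most like Mx2 (0.99) and Cmpk2 (0.98), both interferon-induced genes. Among the members themselves, r was 0.98 between Cxcl2 and Cxcl3, 0.78 between Cxcl2 and Cxcl10 and 0.78 between Cxcl3 and Cxcl10.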

How the data were processed

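RNA of BV-2 cells was sequenced in pairs of reads from poly(A)-selected libraries. Per the study's methods and the submitters' processing notes, the authors checked reads with FastQC 0.12.1, removed adapters with cutadapt 4.4, filtered by length and quality with Trimmomatic 0.39, aligned to GRCm39 with HISAT2 2.2.1, counted over Ensembl genes with HTSeq 2.0.3 (strand setting not given in the sources used here) and tested with DESeq2 1.40.2. The deposited signal of each of 30 pairwise tables is the count divided by a DESeq2 size factor for 6 libraries. The tables also hold the authors' regulation calls, log2 fold changes, standard errors, test statistics and p-values, which were not used.

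Whole reads were recovered in 155 of 180 columns (100% of 2695078 values within 0.01 read), and 0 of 2020699 values differed between tables. A gene is listed from 1 read over 6 libraries, and 41265 gene-by-library values in no table were set to 0. Libraries of a group differed beyond sampling noise (chi-square per degree of freedom 4.60 to 29.1). Tests used limma 3.58.1 in R 4.3.3 on log2 of the deposited value plus 1, for genes at 10 or more in at least 3 of 6 libraries, with no limit on fold change. Differences between times were fitted on recovered reads of 12 libraries. Alternatives were edgeR 4.0.16, DESeq2 1.42.0, a pseudocount of 10, no filter, a replicate block and each library left out. The fits were run on simulated counts with the same spread beyond counting noise for every gene and no replicate effect. Limma called 97.1% of genes changed by 1 on the log2 scale for DMF against LPS at 4 h. For the DMF effect between times it called 70.9%. Of its calls, 7.51% and 6.59% were false. Genes that vary more within groups were not covered. Cxcl3 and Cxcl10 are among these, at 1601.5 ± 756.7 and 800.2 ± 324.6 normalized reads in LPS at 4 h (SD, n = 3), so these shares do not hold for them.

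Per the study's methods each experiment was done 3 times, all with the BV-2 line, and p-values measure the spread between these samples. LPS groups carry numbers 1 to 3 and vehicles 4 to 6, so LPS and vehicle cannot be paired. Any difference between these sets of replicates cannot be told apart from the LPS effect. Same-numbered libraries deviated together (every r over 0.1) in 14 of 23 comparisons with shared numbers, where r ran from 0.127 to 0.732 over 10096 genes. The members and gene lists were chosen with earlier results of these data known. The 6 members are always named, other genes come from the lists, and the genes most like a member were taken by correlation. Exon lengths came from GENCODE, in which 19850 of 19879 genes were found. A gene of the interferon input list is not reported here, and the counts of that list leave it out.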

Additional observations from a re-analysis of the deposited data

Results flagged for a closer look

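For 8 values the difference between an effect at 24 h and the same effect at 4 h passed the interaction test (limma, 12 libraries). The DMF effect against LPS was more positive at 24 h for Cxcl10, by 2.19 on the log2 scale. It was more positive at 24 h for Cxcl2, by 1.55. For Cxcl3 it was more positive by 1.58, a call that did not stand without 8 of the 12 libraries in turn. The CBD effect on Cxcl2 was more positive at 24 h by 0.96. The LPS effect over DMSO changed by -2.81 for Cxcl2 and by -1.69 for Cxcl3 from 4 h to 24 h. The LPS effect over EtOH changed by -3.07 for Cxcl2 and by -1.72 for Cxcl3, on the same LPS libraries. Groups of 3 were not searched for single outlying libraries.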

How the results depend on the processing

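Of 67 called values of single members, 57 passed under every alternative run, 10 lost the call under at least 1 (given beside each result, except for Cxcl11) and 0 changed direction. The numbers of members called per set of comparisons stayed within 1.5 times the reported number under all alternatives. Cxcl3 between DMF and MMF at 4 h, called in no fit, was -0.07 in limma, 0.0468 in edgeR and 0.0489 in DESeq2. Uncalled values also changed sign when 1 library was left out. Against LPS at 4 h the ranges were -0.18 to 0.30 for Cxcl2 and -0.35 to 0.48 for Cxcl3 with DMF, -0.0036 to 0.20 for Cxcl2, -0.14 to 0.48 for Cxcl3 and -0.50 to 0.12 for Cxcl10 with MMF, and -0.20 to 0.42 for Cxcl3 and -0.17 to 0.61 for Cxcl10 with CBD. Against LPS at 24 h they were -0.22 to 0.29 for Cxcl10 with DMF, and -0.063 to 0.27 for Cxcl3 and -0.51 to 0.038 for Cxcl10 with MMF. Between DMF and MMF at 4 h they were -0.28 to 0.20 for Cxcl2 and -0.47 to 0.36 for Cxcl3. The cause was not tested. Group mean levels moved by less than 1 SD under TMM scaling in 72 of 72 cases. The replicate block, where numbers did not pair the libraries, also called Cxcl3 at 24 h against 4 h with DMF (adjusted p 0.0221) and Cxcl10 in the CBD effect (adjusted p 0.000646), and it changed no other call beyond those given in the text. In these fits the block called 7054 of 11602 and 4755 of 11959 genes. DESeq2 lost Cxcl3 at 24 h against 4 h in EtOH (adjusted p 0.0704) and LPS (0.0779). It called Cxcl2 between CBD and DMF at 24 h (0.0458). The 67 include 3 values of Cxcl11, which passed the filter only through the group where it is high, so they are given as a description. Leaving out a library of that group dropped the gene from the fit, so the call could not be lost there. At 24 h the log2 difference of Cxcl11 was -1.87 for DMF against LPS, which is among the 57, and -1.60 for DMF against MMF. For CBD against DMF at 4 h it was 2.69. The call against MMF was lost without DMF replicate 3. That of CBD against DMF was lost without DMF replicate 1 or 3. With no filter Cxcl11 was also called at 24 h for DMF against DMSO (-1.67, limma adjusted p 0.00954) and CBD against DMF (1.66, limma adjusted p 0.0299). Over all genes the block called 206 for MMF against LPS at 24 h and 876 for DMSO against EtOH at 4 h, against 0 without it. Few counted reads limit Cxcl1, Cxcl11 and Cxcl16, at 0 to 45 per library, and for Cxcl11 and Cxcl16 the overlap with other genes does so as well.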

Other observations

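Within groups the same replicate number tended to hold the most Cxcl10, a pattern noticed after the values were seen. Of 8 groups with LPS, alone or with a drug, replicate 2 held the highest Cxcl10 level in 8, the highest Cxcl3 level in 7 and the highest Cxcl2 level in 5. Of 4 vehicle groups, replicate 5 held the highest Cxcl10 level in 4, the highest Cxcl3 level in 4 and the highest Cxcl2 level in 3.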
